A study of Mus musculus with 14 samples.

Results

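The nuclear genes of the mitochondrial respiratory chain were measured in fibroblasts from mice lacking Ptdsr (current symbol Jmjd6), the gene first described as a phosphatidylserine receptor. They were chosen by symbol. Gene symbols of the array platform beginning with Nduf followed by a, b, c, s or v, with Uqcr, Cox4 to Cox8 or Atp5, together with Sdha to Sdhd, Cycs and Cyc1, were matched. The rule found 79 symbols on 109 probes, and 72 of these genes had a ratio on at least 10 of the 14 arrays, out of 9290 genes with as many values. The 7 others had values on fewer arrays. The 72 held 28 genes of complex I, 3 of complex II, 8 of complex III, 14 of complex IV and 15 of complex V. The remaining 4, Ndufaf1, Ndufaf3, Ndufaf5 and Ndufaf7, share the symbol stem but encode assembly factors of complex I, not subunits. Cycs, the gene of cytochrome c itself, was not among the platform symbols used here, and none of the 15 mitochondrially encoded genes searched for was tested, so all values concern nuclear transcripts.

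Each of the 14 two-colour arrays carried RNA of Ptdsr-/- fibroblasts in one channel and RNA of wild-type (Ptdsr+/+) fibroblasts in the other. Cy5 held the knockout for replicates 1, 3, 4, 7, 8, 9 and 13, and Cy3 for the other 7, replicates 2, 5, 6, 10, 11, 12 and 14. The sources used here state no strain, age, passage or description of the knockout allele. Fibroblasts of 2 cultures were used, and which array belongs to which is not labelled, so p-values measure the spread between arrays, which may be technical. Every value below is a log2 ratio, knockout over wild type, after centring each array on its median. That direction is likely but is not stated in the labels. It rests on a coded extreme, which was positive wherever Cy5 held the knockout and negative wherever Cy3 did.

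The respiratory chain passes electrons from NADH (complex I) and succinate (complex II) through ubiquinone, complex III and cytochrome c to oxygen at complex IV. Complexes I, III and IV pump protons across the inner mitochondrial membrane, and ATP synthase (complex V) uses the returning protons to make ATP. Most subunits are encoded in the nucleus, and nuclear respiratory factor 1 (NRF-1) and the ETS-family factor GABP are textbook activators of many of their promoters.

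Between 13165 and 19615 of 20355 probes had a usable ratio on an array, and between 57 and 72 of the 72 respiratory chain genes did. Replicates 1 and 2 had the fewest, with 62 and 57. A ratio holds no expression level, so the label "fibroblast" could not be checked by the abundance of its markers. Of 12 fibroblast markers measured, 0 were called, with a median of -0.066. Among 6 macrophage markers 1 was called, Lyz2, which was lower, and the median was -0.47. Among 4 adipocyte markers Lpl was called lower, with a median of -0.26. Of 5 muscle markers (median 0.016) and 6 epithelial markers (median -0.092) 0 were called. Over all 9290 genes 0.0861% were called, all lower. At an unadjusted p below 0.05, 2 fibroblast, 2 macrophage, 2 adipocyte, 1 muscle and 1 epithelial markers lay lower, where 2.95% of all genes did. At that threshold 0 markers of these lists lay higher, where 2.4% of all genes did. The part of these markers in the results below was not tested. Jmjd6 itself stood at -0.25 ± 1.04 (SD, n = 14), below 0 on 12 of 14 arrays, with replicate 2 at 2.92 and an adjusted p of 0.934 from limma. No source used here places its probes relative to the deletion, so they check nothing about the labels.

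No respiratory chain gene passed the test between knockout and wild type. By limma, with Benjamini-Hochberg adjustment over all 9290 genes, 0 of the 72 were called at an adjusted p below 0.05, against 0.0861% of all genes (8, all lower). The smallest adjusted p among the 72 was 0.903. At an unadjusted p below 0.05, 1 was higher and 1 lower, 2 of 72 in all, where 5.35% of all genes lay (2.4% higher and 2.95% lower). The median of the 72 mean ratios was -0.036, beside 0.0022 over all genes, with 29 means above 0 and 43 below. The direction of this split rests on the likely direction of the ratios: with the Cy3 arrays turned 45 of the 72 means lay above 0. It also differed between dye orientations, with 42 above 0 with the knockout in Cy5 alone and 22 with it in Cy3 alone. Without the 4 assembly factors the median was -0.035 over 68 genes. The means given here come from the fit, which weights both dye orientations equally where values are missing.

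**Figure D1:**
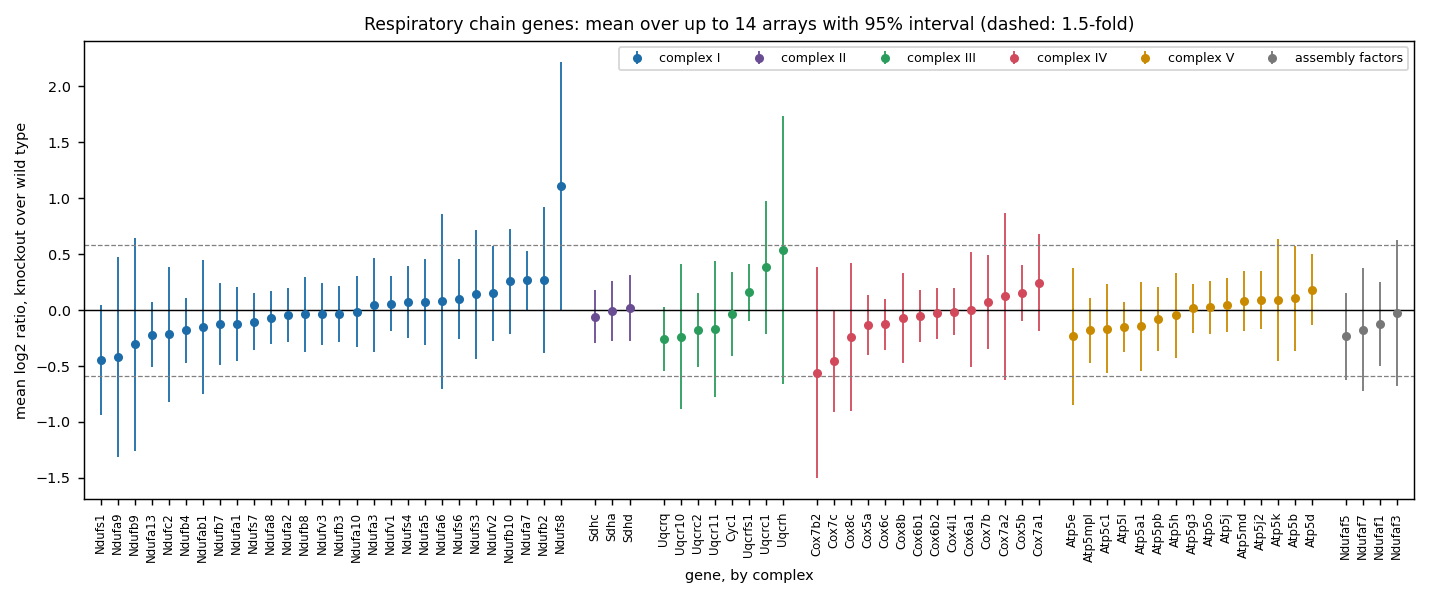
Mean log2 ratio (knockout over wild type, y axis) of each of the 72 respiratory chain genes, ordered by mean within its complex. Bars are 95% intervals from limma and dashed lines mark a 1.5-fold change. The intervals of Ndufa7 and Cox7c narrowly miss 0, and Ndufs8 has the highest mean, 1.11, and a wide interval.

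The precision of the means differed between genes. The 95% intervals measure the spread between arrays, which may be technical, and not the spread between cultures. The 95% interval of the mean lay wholly within a 1.5-fold change in either direction for 48 of the 72 genes and within a 2-fold change for 67. With arrays of the same range of replicate numbers (1 to 6, 7 to 12, 13 to 14) and dye treated as a random block, these counts were 41 and 63. The median half-width of the interval was 0.37 for the 72 genes and 0.46 for all genes tested. The 5 genes whose interval reached past 2-fold were Ndufa9, Ndufb9, Ndufs8, Uqcrh and Cox7b2, all with values on 10 to 12 arrays.

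Ndufa7 and Cox7c were the genes with an unadjusted p below 0.05. Ndufa7, an accessory subunit of complex I, ran from -0.16 to 1.21 between arrays with a median of 0.17. It was above 0 on 11 of 14 arrays, and replicate 2 was highest. Its mean was 0.27 ± 0.35 (SD, n = 14), with an unadjusted p of 0.0463 and an adjusted p of 0.903 from limma. Cox7c, a small nuclear subunit of cytochrome c oxidase, ran from -1.3 to 1.45 with a median of -0.57. It was below 0 on 10 of 14 arrays, while replicate 4 stood apart at 1.45. Its mean was -0.46 ± 0.79 (SD, n = 14), with an unadjusted p of 0.0467 and an adjusted p of 0.903 from limma. Leaving out single arrays kept the Ndufa7 mean between 0.19 and 0.30 and the Cox7c mean between -0.62 and -0.39, with no call (adjusted p at least 0.672).

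**Figure D2:**
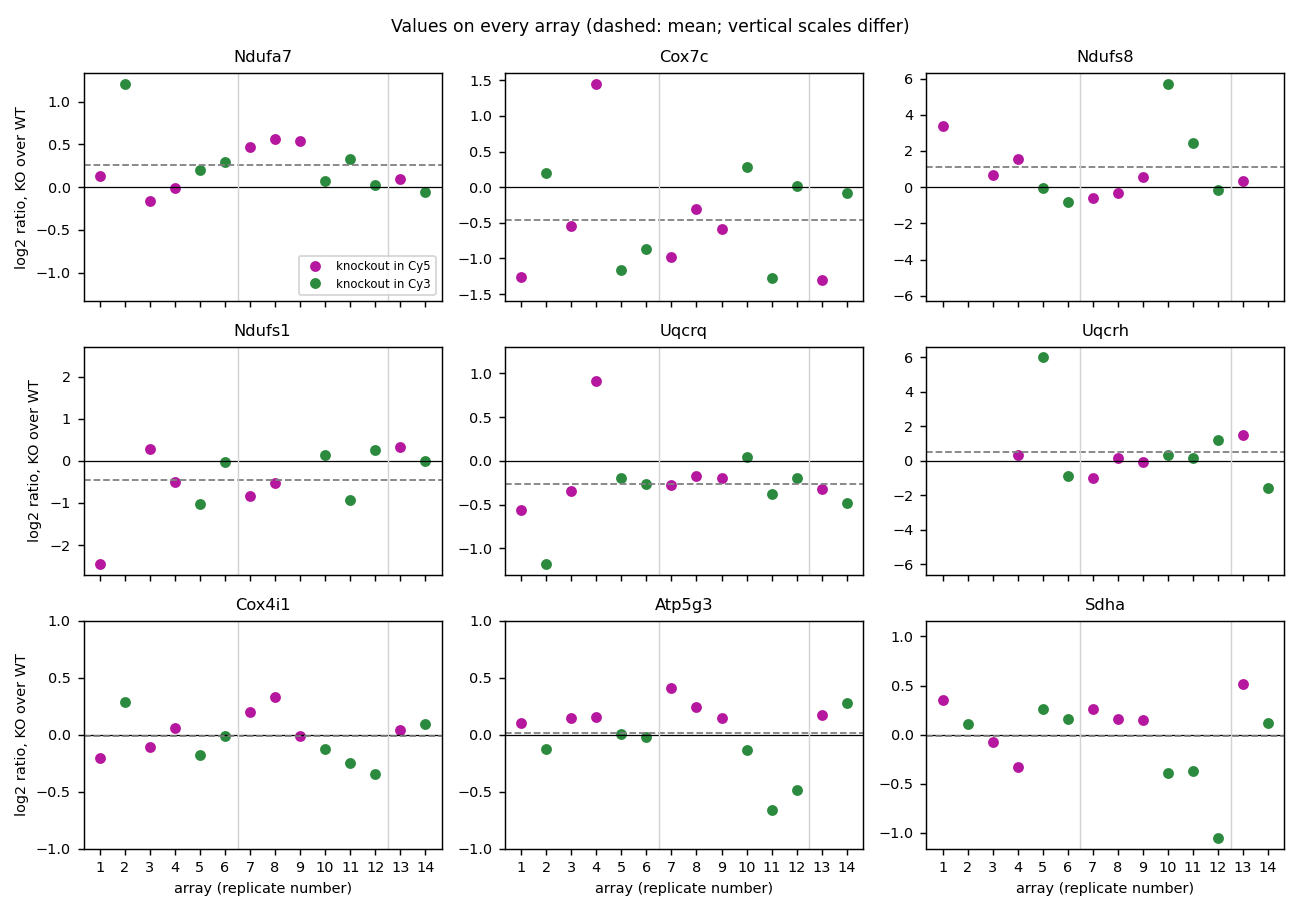
Log2 ratio (knockout over wild type, y axis, scales differ between panels) of 9 respiratory chain genes on each of 14 arrays (x axis, replicate number), coloured by the dye of the knockout. The dashed line is the mean, and grey verticals separate replicates 1 to 6, 7 to 12 and 13 to 14. Ndufs8 and Uqcrh owe their high means to a few arrays, and Cox4i1, Atp5g3 and Sdha show lower values on replicates 10 to 12 than on 7 to 9.

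The promoters of these genes were read from RefSeq's promoter table (GRCm38.p6, 250 bases before to 50 after the transcription start), which held 60 of the 72. Motifs were searched on both strands. The NRF-1 core GCATGCGC was found for 8 of the 60 (13.3%) and for 3.05% of all 27025 genes in the table. The ETS core CCGGAAG, which GABP binds, was found for 15 (25%) and for 9.93% of all genes, and 4 genes held both. The median mean ratio was -0.031 for genes with the NRF-1 core and -0.012 for those without, and 0.0051 and -0.014 for the ETS core. All 4 medians lay near 0. A match is a description of letters and shows no binding.

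Shown here are Cox6a1 and Atp5l, each with both motifs, and the pair with the smallest p, Ndufa7 and Cox7c, with neither in the bases printed. Each line gives the 250 bases before the start, 5′ to 3′ on the gene's strand, with motif matches in capitals. Cox6a1 (chr5:115348959-115349208, minus strand) holds overlapping NRF-1 matches on both strands. Atp5l lies at chr9:44920743-44920992 (minus strand), Cox7c at chr13:86046796-86047045 (minus strand) and Ndufa7 at chr17:33824322-33824571 (plus strand, the first of 2 windows in the table).
Cox6a1: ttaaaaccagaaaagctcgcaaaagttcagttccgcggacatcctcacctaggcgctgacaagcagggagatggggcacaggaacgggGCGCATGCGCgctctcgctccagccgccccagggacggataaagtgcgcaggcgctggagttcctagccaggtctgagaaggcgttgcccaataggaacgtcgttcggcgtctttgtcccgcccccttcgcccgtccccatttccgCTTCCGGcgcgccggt
Atp5l: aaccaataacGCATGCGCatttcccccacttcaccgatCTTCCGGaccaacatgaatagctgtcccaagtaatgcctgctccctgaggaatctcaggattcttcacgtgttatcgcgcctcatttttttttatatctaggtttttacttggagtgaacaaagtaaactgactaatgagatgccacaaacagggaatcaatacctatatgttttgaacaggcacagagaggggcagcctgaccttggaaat
Cox7c: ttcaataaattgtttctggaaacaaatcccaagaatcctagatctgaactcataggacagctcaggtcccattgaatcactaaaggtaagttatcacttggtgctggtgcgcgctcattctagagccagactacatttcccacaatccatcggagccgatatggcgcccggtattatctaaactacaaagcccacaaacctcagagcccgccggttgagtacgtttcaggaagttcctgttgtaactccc
Ndufa7: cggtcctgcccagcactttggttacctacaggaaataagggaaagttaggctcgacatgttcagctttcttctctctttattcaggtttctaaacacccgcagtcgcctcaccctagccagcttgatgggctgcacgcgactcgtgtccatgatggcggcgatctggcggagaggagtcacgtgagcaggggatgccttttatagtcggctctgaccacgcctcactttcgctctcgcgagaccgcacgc
The mean ratio of Cox6a1 was 0.0051 ± 0.94 (SD, n = 14) and that of Atp5l -0.15 ± 0.28 (SD, n = 14), neither past the test.

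Complex I, the NADH dehydrogenase, is the largest complex of the chain. Of its 28 genes 12 had a mean above 0 and 16 below, with a median of -0.036, and 0 were called. Ndufs8, an iron-sulfur core subunit, had the highest mean at 1.11 ± 1.93 (SD, n = 12), with an adjusted p of 0.903 from limma. Its values ran from -0.80 to 5.72 with a median of 0.45, and 5 of 12 lay below 0. Replicates 10 (5.72), 1 (3.36) and 11 (2.43) held the high values, and the remaining arrays stayed at 1.56 or lower. With the Cy3 arrays turned the Ndufs8 mean would be -0.32. Ndufs1, the largest iron-sulfur core subunit, had the lowest mean at -0.45 ± 0.80 (SD, n = 12). It ran from -2.46 on replicate 1 to 0.32, with 7 of 12 arrays below 0 and an adjusted p of 0.903 from limma.

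The other catalytic subunits of complex I lay close to 0. The flavoprotein gene Ndufv1, whose product binds FMN and takes electrons from NADH, stood at 0.058 ± 0.34 (SD, n = 14). Ndufv2 stood at 0.15 ± 0.75 (SD, n = 14), Ndufs3 at 0.14 ± 1.02 (SD, n = 13) and Ndufs7 at -0.10 ± 0.35 (SD, n = 14). Ndufa13, also known as Grim19, was below 0 on 11 of 14 arrays with a mean of -0.22 ± 0.43 (SD, n = 14) but missed the threshold (unadjusted p = 0.128, limma). The other complex I genes had means between -0.42 (Ndufa9) and 0.27 (Ndufb2). Among the assembly factors Ndufaf5 was lowest at -0.23 ± 0.68 (SD, n = 14) and Ndufaf3 highest at -0.026 ± 1.17 (SD, n = 13).

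Complex II, succinate dehydrogenase, also serves in the tricarboxylic acid cycle and is encoded wholly in the nucleus. The flavoprotein gene Sdha had a mean of -0.011 ± 0.41 (SD, n = 14). Its values ran from -1.06 to 0.51 with a median of 0.13, and replicate 12 was lowest. The membrane anchor genes Sdhc and Sdhd lay at -0.060 ± 0.29 (SD, n = 14) and 0.019 ± 0.41 (SD, n = 13). All 3 intervals stayed within 1.5-fold, the widest bounds being -0.30 (Sdhc) and 0.31 (Sdhd). Sdhb, the iron-sulfur subunit, was measured on only 9 arrays (range -0.81 to 5.48) and so entered no test.

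Complex III, the cytochrome bc1 complex, had a median of -0.10 over 8 genes, with 3 means above 0 and 5 below. Uqcrq, a small subunit, was lowest with its probes averaged, at -0.26 ± 0.44 (SD, n = 14). It lay below 0 on 12 of 14 arrays, from -1.18 on replicate 2 to 0.91 on replicate 4 with a median of -0.27, and did not pass (unadjusted p = 0.0739, adjusted p = 0.903, limma). Its 3 probes had means of -0.39, -0.33 and -0.028, and the last, the probe with the most values, was not the lowest of the complex. Uqcrh, the hinge protein, had the highest mean at 0.54 ± 2.02 (SD, n = 11). A single value of 6.00 on replicate 5 stood above the next highest of 1.5, and its median was 0.17. Cyc1, cytochrome c1, stood at -0.034 ± 0.66 (SD, n = 14), with 7 arrays on each side of 0, as the average of 2 probes with means of 0.23 and -0.26. The probe with more values was the one at -0.26. Uqcrfs1, the Rieske iron-sulfur protein, stood at 0.16 ± 0.32 (SD, n = 13). The complex III median was 0.171 on the 7 arrays with the knockout in Cy5 and -0.196 on the 7 with it in Cy3, and it was 0.015 without replicate 14.

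Complex IV, cytochrome c oxidase, has several subunits that occur as isoforms of different tissues. Its 14 genes had a median of -0.042, with 5 means above 0 and 9 below, and 0 were called. Cox4i1, the common form of subunit 4, was the most precisely measured of the 72 genes. Its 4 probes had means of -0.045, -0.033, 0.033 and -0.040. The gene mean was -0.017 ± 0.20 (SD, n = 14) with a 95% interval from -0.23 to 0.19, and its values ran from -0.34 to 0.33. Replicates 10 to 12 were lower than replicates 7 to 9 for this gene.

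Of the isoforms known from heart and skeletal muscle, Cox7a1 and Cox8b were tested. Cox7a1, a muscle form, had the highest mean of the complex at 0.24 ± 0.78 (SD, n = 14), and replicate 11 alone reached 2.73 while its median was 0.043. A Cox7a1 probe with an SD of 0.31 had a mean of 0.019, and the other, with an SD of 1.63, a mean of 0.47. Cox7a2, the widespread form, stood at 0.12 ± 1.24 (SD, n = 10), with 5 values on each side of 0. Cox8b, another muscle form, stood at -0.071 ± 0.65 (SD, n = 12), from -1.52 to 1.21. Cox8a, with values on 7 arrays, and Cox6a2, on 4, entered no test.

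Forms known from testis had wide and narrow spreads alike. Cox7b2 had the lowest mean of the complex at -0.56 ± 1.65 (SD, n = 11), and 54.5% of its ratios were ratios of small whole numbers, which were counted as a stand-in for dim spots. Its values ran from -4.02 on replicate 9 to 1.49 on replicate 2 with a median of -0.29. Cox8c stood at -0.24 ± 1.12 (SD, n = 12), with a lowest value of -3.23 on replicate 1. Cox7b2 and Cox6b2 are sensitive to the coded extremes, which are no measurement: kept as values they moved the means to -1.95 and -1.22. Without them Cox6b2 lay at -0.030 ± 0.22 (SD, n = 13), beside -0.054 ± 0.29 (SD, n = 14) for the common form Cox6b1. None of these isoforms passed the test, and differences between isoforms were not tested. Cross-hybridisation between related isoforms was not measured.

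Complex V, ATP synthase, had a median of 0.016 over 15 genes, with 8 means above 0 and 7 below, and 0 were called. The catalytic subunit gene Atp5b stood at 0.10 ± 0.82 (SD, n = 13), and Atp5d, the delta subunit of the central stalk, was highest at 0.18 ± 0.49 (SD, n = 14). Atp5d ran from -0.75 on replicate 12 to 0.78 on replicate 2, with 9 of 14 arrays above 0. The epsilon subunit gene Atp5e had the lowest mean at -0.23 ± 1.23 (SD, n = 12), from -2.26 to 1.91, with 9 of 12 values below 0. Atp5g3, which encodes the c subunit of the proton-driven ring, stood at 0.016 ± 0.29 (SD, n = 14), from -0.66 to 0.41 with a median of 0.13. Atp5g1 and Atp5g2, which encode the same mature c subunit, were not among the platform symbols used here.

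Where several probes measured a gene they did not always give the same value. Of the 72 genes 23 had more than 1 probe, and 22 had at least 2 probes with values on 10 or more arrays. The probe means of these 22 lay apart by a median of 0.14, with means of both signs for 8 genes and a gap above 0.5 for 1. That gene was Atp5a1, the alpha subunit of ATP synthase, whose probes had means of -0.040 ± 0.40 (SD, n = 14), -0.94 ± 1.89 (SD, n = 10) and 0.21 ± 0.91 (SD, n = 13). Its gene mean was -0.15 ± 0.80 (SD, n = 14). Probes on fewer than 10 arrays were left out of these counts but enter the gene means. Ndufc2 had probe means of 0.13 (9 arrays) and -0.63 (10 arrays). Atp5h had a probe mean of 0.38 (9 arrays) beside -0.074 and -0.50.

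As a group the respiratory chain genes were better measured than most. The deposited ratios carry no spot intensity, so ratios equal to ratios of whole numbers up to 10 (within 0.0011 log2 units) were counted as a stand-in for dim spots. The median share of such ratios was 8.01% for the 72 genes and 16.7% for all genes. A value on all 14 arrays was present for 45 of the 72 (62.5%) and for 49.8% of all genes. The median SD between arrays was 0.61 for the 72 and 0.81 for all genes.

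Within replicates 7 to 12 many respiratory chain genes were separated between replicates 7 to 9 and replicates 10 to 12. Dye orientation and replicate number change together there, so the design cannot tell them apart. On replicates 7, 8 and 9, with the knockout in Cy5, the median of the 72 genes was 0.16, 0.20 and 0.11. On replicates 10, 11 and 12, which had the dyes the other way round, it was -0.13, -0.19 and -0.25, so the groups of 3 arrays did not overlap. ATP synthase genes had medians of 0.31, 0.37 and 0.13 against -0.16, -0.19 and -0.40, and complex I genes 0.17, 0.25 and 0.19 against -0.086, -0.19 and -0.19. For complex IV the arrays overlapped, replicate 9 at -0.063 lying below replicate 11 at 0.012. On replicates 13 and 14 the median of the 72 was -0.001 and 0.004. These ranges of replicate numbers are no labelled batches and were chosen with the values known.

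**Figure D3:**
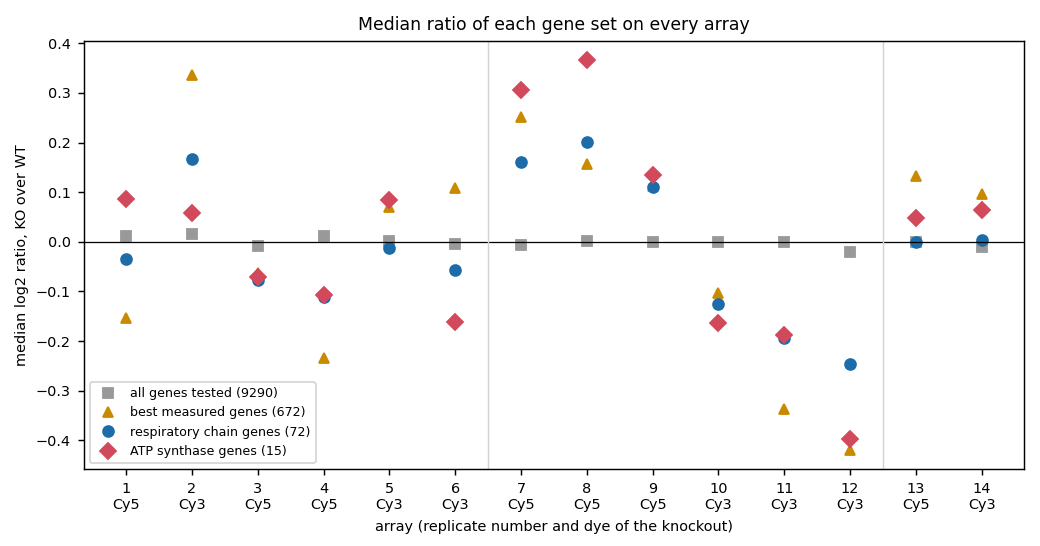
Median log2 ratio (knockout over wild type, y axis) of 4 gene sets on each of 14 arrays (x axis, replicate number and dye of the knockout). All genes tested sit near 0 by centring. The respiratory chain genes, the ATP synthase genes among them and the best measured genes lie above 0 on replicates 7 to 9 and below 0 on replicates 10 to 12.

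Counted gene by gene, 64 of the 72 had all 6 values in replicates 7 to 12. For 26 of the 64 (40.6%) the 3 arrays with the knockout in Cy5 all lay above the 3 with it in Cy3, against 17.6% of all genes. The opposite order held for 2 of the 64, Cox6a1 and Uqcrh, against 12.7% of all genes. The 26 held 9 of the 15 ATP synthase genes, 8 of 24 complex I genes, 4 of 12 complex IV genes, 2 of 7 complex III genes, Sdha, Sdhc and Ndufaf7. Sdha stood at 0.26, 0.16 and 0.15 on replicates 7 to 9 and at -0.39, -0.37 and -1.06 on replicates 10 to 12. Atp5g3 stood at 0.41, 0.24 and 0.15 and at -0.14, -0.66 and -0.49 on the same arrays.

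In the class of well measured genes this order was also more frequent than among all genes. Among the 672 genes with values on all 14 arrays and no small whole-number ratio, 46.9% had the knockout-in-Cy5 arrays all higher in replicates 7 to 12 and 2.23% all lower. Of the 11 respiratory chain genes within this class 7 were higher in that order and 0 lower. The 672 genes had array medians from 0.11 to 0.25 on replicates 7 to 9 and from -0.42 to -0.10 on replicates 10 to 12. Cytosolic ribosomal protein genes had 29 of 56 in the same order. Whether the share among respiratory chain genes differs from that among well measured genes was not tested.

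In replicates 1 to 6 the opposite order was the more frequent of the pair. All 6 values were present for 49 of the 72. The knockout-in-Cy5 arrays were all lower for 13 of these (26.5%), against 18.8% of all genes and 34.7% of the 672 best measured genes. They were all higher for 2 of 49, against 8.46% of all genes. The median dye term, the fitted deviation of the Cy5 arrays from the mean, was -0.046 over 66 genes in replicates 1 to 6 and 0.14 over 71 genes in replicates 7 to 12. By limma the dye term was called for 0 of the 66 in replicates 1 to 6, and for 0 of all 8516 genes fitted. At an unadjusted p below 0.05, 3 lay above 0 and 0 below, against 7.46% and 3.23% of all genes (10.7% in all). The means within these ranges gave no call either. In replicates 1 to 6, 1 of 66 means lay below 0 and 0 above at an unadjusted p below 0.05, against 2.4% and 2.72% of all genes (5.12% in all). In that range 0 of all 8516 genes were called for the mean. In replicates 7 to 12, 1 of 71 lay above and 1 below, against 3.98% and 4.97% (8.95% in all), and 0.12% of all genes were called.

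**Figure D4:**
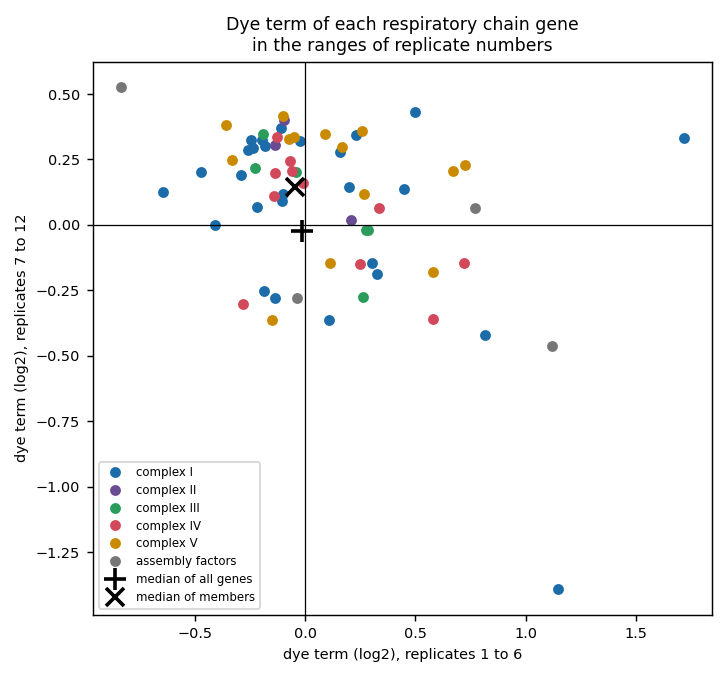
Dye term (log2, deviation of arrays with the knockout in Cy5 from the mean) of 65 respiratory chain genes fitted in replicates 1 to 6 (x axis) and in replicates 7 to 12 (y axis), coloured by complex. The cross marks the median of the genes fitted in each range (-0.046 and 0.14) and the plus sign that of all genes (-0.013 and -0.024).

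By limma the dye term was called for 0 of the 72 genes over all 14 arrays, against 0.0431% of all genes, and 6 had an unadjusted p below 0.05, against 7.42%. These 6 were Ndufa1, Ndufa9, Ndufaf1, Atp5a1, Atp5e and Atp5pb, all with a dye term above 0. The share of all genes by direction was not counted for this fit. Atp5e stood at 0.43 ± 1.12 (SD, n = 6) where Cy5 held the knockout and at -0.90 ± 1.0 (SD, n = 6) where Cy3 did. Within replicates 7 to 12 alone the dye term was called for 0 of 71, and for 0 of all 9161 genes fitted. At an unadjusted p below 0.05, 12 of the 71 lay above 0 and 0 below. Of all genes 6.69% lay above and 10.2% below (16.9% in all). The smallest adjusted p among the 71 was 0.264. The difference in dye term between the ranges, tested as an interaction, was called for 0 of 65, and for 0 of all 8394 genes. At an unadjusted p below 0.05, 14 of the 65 lay above 0 and 3 below. Of all genes 9.29% lay above 0 and 21.4% in either direction. If the arrays with the knockout in Cy3 had not been turned before deposit, the dye term would be the knockout effect, and 0 of the 72 would be called in that reading too.

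Genes around the chain were looked at by lists. None of the 9 lists searched for, of which the mitochondrially encoded genes had 0 tested, held a called gene. The nuclear assembly factors had 9 of 26 means above 0 and a median of -0.038, and 4 of the 26 are the Ndufaf genes above. They reached from Tmem126a at -0.43 ± 1.11 (SD, n = 14) to Cox16 at 0.73 ± 1.59 (SD, n = 11). The tricarboxylic acid cycle and pyruvate dehydrogenase genes had 11 of 19 means above 0 and a median of 0.023, with 0 at an unadjusted p below 0.05. Mdh2, the mitochondrial malate dehydrogenase, was highest at 0.26 ± 0.38 (SD, n = 14), and Pdk2, a kinase that inhibits pyruvate dehydrogenase, lowest at -0.40 ± 0.92 (SD, n = 13).

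Mitochondrial ribosomal proteins had 33 of 61 means above 0 and a median of 0.018. Mrpl9 was lowest at -0.77 ± 0.76 (SD, n = 12), below 0 on 11 of 12 arrays, with an unadjusted p of 0.00337 and an adjusted p of 0.591 from limma. Mrps27 stood at 0.44 ± 0.74 (SD, n = 12), with an unadjusted p of 0.0481 and an adjusted p of 0.903 from limma. Import and matrix chaperone genes had 19 of 25 means above 0 (76%) and a median of 0.17, against 50.4% of all genes above 0, with 0 at an unadjusted p below 0.05. Their median was 0.27 on the arrays with the knockout in Cy5 and -0.030 on those with it in Cy3. Over all arrays their means lay between Timm17b at -0.22 ± 0.59 (SD, n = 12) and Timm10b at 0.40 ± 1.36 (SD, n = 11).

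Regulators of mitochondrial biogenesis had 5 of 16 means above 0 and a median of -0.074. Nrf1, which encodes NRF-1, was lowest at -0.64 ± 1.16 (SD, n = 14) and lay below 0 on 12 of 14 arrays, with an unadjusted p of 0.0382 and an adjusted p of 0.903 from limma. Among 14 glycolysis genes 2 were higher at an unadjusted p below 0.05, where 2.4% of all genes lay. They were Pfkm, muscle phosphofructokinase, at 0.75 ± 1.0 (SD, n = 13, adjusted p = 0.832, limma), above 0 on 12 of 13 arrays, and Hk2, hexokinase 2, at 0.27 ± 0.35 (SD, n = 14). Eno2 was lowest at -0.31 ± 0.66 (SD, n = 14), below 0 on 13 of 14 arrays. The 15 carrier and antioxidant genes had a median of -0.0070. Txn2, mitochondrial thioredoxin, stood at -0.46 ± 0.87 (SD, n = 13), with an unadjusted p of 0.0453 and an adjusted p of 0.903 from limma. Of 19 vacuolar ATPase genes, a related rotary enzyme, 7 had means above 0. At an unadjusted p below 0.05, 2 of the 19 lay lower, where 2.95% of all genes lay. They were Atp6ap1 at -0.32 ± 0.45 (SD, n = 14) and Atp6v1b2 at -0.93 ± 1.57 (SD, n = 13). Both had an adjusted p of 0.903 from limma.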

How the data were processed

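Fibroblast RNA was compared on 14 two-colour cDNA arrays. Labelling was indirect, per the labels' protocols. That text mentions organs and a pooled control, but the channel labels say wild-type fibroblasts and were followed. The number of wild-type samples is not labelled, so the wild-type RNA is counted as 1 control sample whose own spread is not measured. The deposited values are log2 channel ratios. For scanning, background and normalization by the authors, nothing is given in the sources used here. The base was read from a repeated extreme lying 16.6 from each array's most frequent value, a ratio of 100000, taken as a code for a zero denominator. Deposited medians ran from -0.334 to 0.245.

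Values above 12 in size were set to missing, arrays centred on their medians and probes averaged per gene. Of 20355 probes 14030 had 1 gene symbol, 5 several and 6320 none. The 9290 genes with values on at least 10 arrays were fitted with limma 3.58.1 in R 4.3.3 (intercept tested against 0, dye term +1 and -1, lmFit and eBayes, Benjamini-Hochberg, threshold 0.05). The model was tested on simulated data. The number of arrays limits the precision. Members and lists were chosen with earlier results of these data known. Named genes were those called or at an unadjusted p below 0.05, the highest and lowest of each complex, complex II, isoform groups, and the same extremes of the other lists. Further genes named for their role or probes were chosen after their values were seen. Alternatives covered centring, probe summary, missing values, coded extremes, direction, dye, blocks, single arrays and variance model.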

Additional observations from a re-analysis of the deposited data

How the results depend on the processing

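Under 32 other settings 0 respiratory chain genes were called by limma for the mean, or for the dye term where it was fitted. By setting, 0 to 6 of them had an unadjusted p below 0.05 for the mean. The 6 came with the Cy3 arrays turned, where 689 of 9290 genes had such a p. The settings with 0 included the random block, where 272 of 9290 genes did. The smallest adjusted p for the mean among the respiratory chain genes was 0.463, with number range as a fixed block. Their median stayed between -0.057 and -0.027 without single arrays, and was -0.047 without centring, 0.050 with the knockout in Cy5 alone, -0.094 with it in Cy3 alone and 0.057 with the Cy3 arrays turned, each within the spread between arrays. The complex III median was 0.171 with the knockout in Cy5 alone. Of 724 recomputed means of the 24 named genes, 76 changed sign, 15 of them with the Cy3 arrays turned, and 0 were called. The mean of Cox6b2 moved past the spread between arrays, to -1.22, with coded extremes kept. The count over all genes, 8 here, was 6 to 9 without single arrays, 4 with the Cy3 arrays turned, 5 with a random block of number range and dye and 13 with number range as a fixed block. It was 0 with the knockout in Cy5 alone (556 at an unadjusted p below 0.05), in Cy3 alone (637) and in replicates 1 to 6 alone (436), but 11 in replicates 7 to 12 alone. The cause of these shifts was not tested. Each array already pairs knockout with wild type, and no pairing between arrays was possible because all 14 form 1 group. The setting without the assembly factors, that of the best measured genes, that without replicates 1 and 2 and the interaction were added after the data were seen.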

Other observations

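Of the 79 matched symbols 7 had values on fewer than 10 arrays and entered no test. Ndufb5, Ndufb11, Ndufc1, Ndufaf6 and Sdhb had values on 9 arrays each, Cox8a on 7 and Cox6a2, a heart and skeletal muscle isoform, on 4. Their medians were -0.14 for Ndufb5, -0.032 for Ndufb11, 0.030 for Ndufc1, 0.32 for Ndufaf6, 0.027 for Sdhb, -0.81 for Cox8a and 1.51 for Cox6a2. Single arrays lay far out for some of them, as Cox6a2 reached 6.36 and Ndufc1 ran from -3.98 to 2.81.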
